A study of Mus musculus with 6 samples.

Results

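Myc and 9 immediate early genes (Fos, Fosb, Jun, Junb, Egr1, Atf3, Ier2, Ier3 and Gadd45b) were examined in mouse liver after knockdown of the lncRNA Hnf1aos1. They were taken by gene symbol from the table of raw read counts, where all 10 were found among 40803 genes. The study had 6 libraries, 3 labelled rAAV8-Scramble and 3 labelled rAAV8-Hnf1aos1, here called scramble and knockdown libraries, with replicates 1 to 3 in each group. Both groups were C57BL/6J mice, male, normally fed and about 6 weeks old, that had received recombinant adeno-associated virus serotype 8 (rAAV8, which enters hepatocytes readily) by tail vein, so the control mice carried a vector and a hairpin too. In each vector a U6 promoter drove a short hairpin RNA, either against Hnf1aos1 or scrambled, beside an EGFP reporter under the ubiquitous CAG promoter. Livers were taken 4 weeks later, after carbon dioxide and cervical dislocation, and each library came from 1 mouse.

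Immediate early genes are switched on within minutes of a stimulus, without new protein synthesis, when kinases activate transcription factors such as SRF and CREB that already sit at their promoters. Fos and Jun family proteins pair through leucine zippers as the transcription factor AP-1, Egr1 is a zinc finger factor, and Myc pairs with Max on E-box sequences to drive ribosome production, nucleotide synthesis and growth. In liver the group is best known from the hours after partial hepatectomy, and it also answers growth factors, cytokines, hypoxia and the handling of the animal or tissue.

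Promoter sequence was matched by symbol to RefSeq on GRCm38.p6 for 7 of the 10 genes (Fos, Fosb, Jun, Junb, Atf3, Ier3 and Gadd45b). Both strands of the 250 bases before each start were searched for TGACG, the core of the cyclic AMP response element (CRE) that CREB and ATF proteins bind, for the E-box CACGTG, for TATAAA and for CCAAT, and no matches of different motifs overlapped in these genes. TGACG lay in the window of 4 of the 7 genes, Fos at −129 and −66, Fosb at −60, Junb at −106 and Atf3 at −7 on the opposite strand, where 17.8% of 32851 promoters held it. CACGTG lay in 1 of the 7, Gadd45b at −185, against 6.02% of all promoters. TATAAA was found for Fos and Gadd45b (12.4% of all promoters) and CCAAT for Jun, Junb, Ier3 and Gadd45b (33.8%). Binding at these sites was not tested. The stretches below show Gadd45b, which holds the E-box letters, and the 3 Fos and Jun family members with the CRE core. Each runs 5′ to 3′ from 200 bases before the RefSeq start to the start or to the nearest base annotated as exon in GENCODE, and capitals mark TGACG in Fos, Fosb and Junb and CACGTG in Gadd45b.
Fos, chr12:85473690-85473889, plus strand: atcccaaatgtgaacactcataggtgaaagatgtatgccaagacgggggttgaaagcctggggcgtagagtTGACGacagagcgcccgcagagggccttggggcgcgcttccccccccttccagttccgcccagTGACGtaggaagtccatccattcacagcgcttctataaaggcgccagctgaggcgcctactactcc
Fosb, chr7:19310052-19310245, minus strand: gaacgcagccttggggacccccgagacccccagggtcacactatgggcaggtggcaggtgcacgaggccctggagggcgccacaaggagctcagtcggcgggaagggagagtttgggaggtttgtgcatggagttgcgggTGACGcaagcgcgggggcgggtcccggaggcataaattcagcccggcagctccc
Junb, chr8:84978749-84978948, minus strand: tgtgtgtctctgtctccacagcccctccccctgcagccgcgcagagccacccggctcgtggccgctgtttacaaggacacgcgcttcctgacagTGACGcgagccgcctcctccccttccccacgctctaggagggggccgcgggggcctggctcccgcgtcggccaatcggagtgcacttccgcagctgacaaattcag
Gadd45b, chr10:80929891-80930072, plus strand: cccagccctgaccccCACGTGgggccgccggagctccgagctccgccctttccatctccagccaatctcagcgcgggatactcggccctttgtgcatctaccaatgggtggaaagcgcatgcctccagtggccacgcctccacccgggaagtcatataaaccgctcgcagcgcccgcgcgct

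Values for genes are normalized counts, that is, raw counts brought to a common library size with edgeR's TMM factors. edgeR's quasi-likelihood test compared the groups over the 16327 genes that passed its filter on low counts, and a gene was called when its Benjamini-Hochberg adjusted p was under 0.05. Fold changes are knockdown over scramble. Gene totals ran from 14704746 to 19462398 counts per library, and knockdown replicate 3 stood farthest from the other libraries of its group (20.3 and 28.7 per gene in a chi-square comparison, against 13.4 for the other pair). Hnf1aos1, the targeted lncRNA, had 512, 491 and 620.3 normalized counts across scramble replicates 1 to 3 and 278, 258 and 433 across knockdown replicates 1 to 3, so the groups did not overlap (log2 fold change −0.74, SE 0.195, adjusted p = 0.0625). It was not called, and the library with the weakest reduction was knockdown replicate 3. The 8 hepatocyte markers summed to 83642 to 94935 CPM (counts scaled to the same library total) in scramble and 94142 to 107232 CPM in knockdown libraries, and 1 of them was called (Fgb, log2 fold change 1.11).

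Of the 10 genes, 9 passed the filter on low counts and Fosb did not. None of the 9 was called, while 6.32% of all genes tested were called, 3.09% higher and 3.23% lower. At an unadjusted p under 0.05 there were 3 (Myc and Junb higher, Gadd45b lower), where 23.4% of all genes tested lay under that limit. The groups did not overlap for 2 of the 9, Myc with every knockdown library higher and Gadd45b with every knockdown library lower, against 28.9% of all genes tested in either direction and 15.2% with the knockdown higher. DESeq2 called 2, Myc and Junb, both higher, where it called 6.96% of its 17625 genes. Set against these shares, edgeR's calls (0 of 9) and the genes without overlap (2 of 9) were no more frequent here than among all genes. The 3 of 9 genes at an unadjusted p under 0.05 were near the share of 23.4%. The 2 calls of DESeq2, which also tested Fosb and did not call it (adjusted p = 0.429), were above its share. With so few genes little more can be read from any of these counts.

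**Figure D1:**
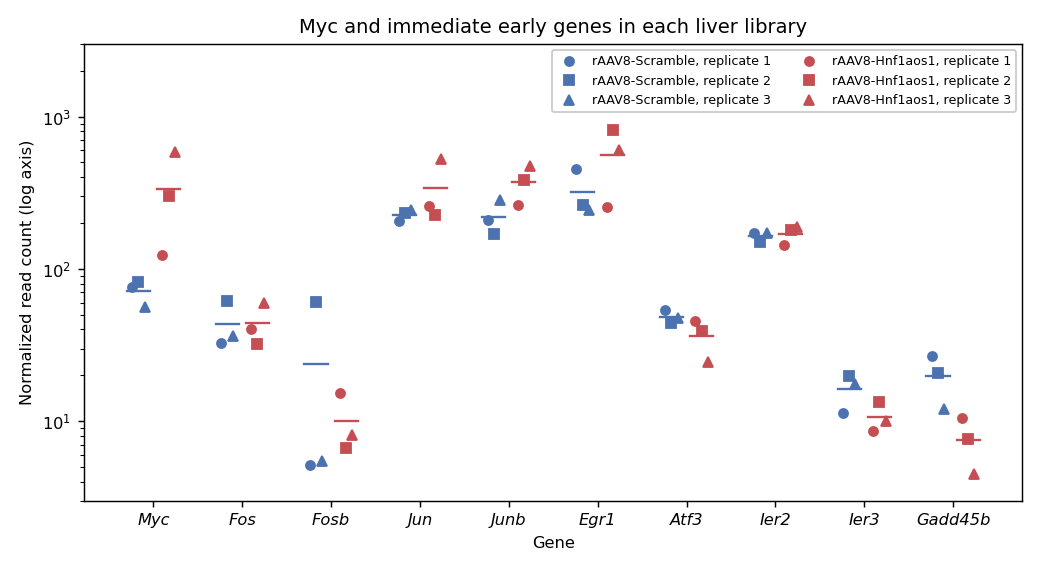
Normalized read counts (y axis, log scale) of the 10 genes (x axis) in the 3 rAAV8-Scramble libraries (blue) and the 3 rAAV8-Hnf1aos1 libraries (red), with marker shapes for replicates and a line at each group's mean. Myc and Gadd45b are the 2 tested genes whose groups do not overlap, and Fosb has 1 high scramble library.

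Myc showed the largest difference of the group. On chromosome 15 of GRCm38 (61985391 to 61990374, plus strand, protein coding), it encodes the MYC transcription factor. Its normalized counts were 75.9, 82.3 and 56.1 in scramble replicates 1 to 3 and 123, 303 and 584 in knockdown replicates 1 to 3. All knockdown libraries lay above all scramble libraries, and they differed among themselves by 4.75 times from lowest to highest, against 1.47 times among the scramble libraries. The means were 71.4 ± 13.7 (SD, n = 3) and 337 ± 232 (SD, n = 3). The log2 fold change was 2.24 (SE 0.664, 95% confidence interval 0.49 to 3.98), with an unadjusted p of 0.0223 and an adjusted p of 0.138 in edgeR's test, which did not call it. DESeq2 gave 2.24 with an adjusted p of 0.0106. The call turned on 1 knockdown library as well: without knockdown replicate 1, the lowest of its group, edgeR called Myc (log2 fold change 2.63, adjusted p = 0.0137), where that fit called 3.77% of all genes tested, and without knockdown replicate 3 the log2 fold change was 1.58 (adjusted p = 0.0741).

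Partners and antagonists of MYC were covered by a list of the MYC family and the MAX network with 12 genes (Max, the Mxd repressors, Mga, Mlx and the glucose-sensing Mlx partners among them). Of these, 11 were tested and 1 was called, near the share of 6.32% among all genes. That gene, Mlxipl, encodes ChREBP, which switches on glycolytic and lipogenic genes in liver. It had 8827, 8059 and 9712 normalized counts in scramble replicates 1 to 3 and 4278, 5409.9 and 6761 in knockdown replicates 1 to 3, and it fell by 0.69 on the log2 scale (SE 0.154, adjusted p = 0.0303). Its call was lost in 4 of the 6 fits that left out 1 library (without scramble replicate 1, 2 or 3, or knockdown replicate 2). The median log2 fold change of the 11 was 0.05, against 0.00 over all genes tested.

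A list of known MYC target genes, written with earlier results of these data known, mostly had log2 fold changes above 0. Most of it is genes that MYC activates (ribosome biogenesis factors, nucleotide and polyamine synthesis enzymes, translation factors, mitochondrial chaperones and cell cycle regulators), while Cdkn1a (log2 fold change 0.15, adjusted p = 0.816) is a gene that MYC represses. Of 40 listed and tested, 6 were called, all higher, against 6.32% of all genes called and 3.09% called higher, and 35 had a log2 fold change above 0, where 49.9% of all genes tested did. Their median was 0.26. The groups did not overlap for 19 of the 40, 18 with the knockdown higher and 1 with it lower, where 15.2% and 13.7% of all genes tested did the same. Odc1, the rate-limiting enzyme of polyamine synthesis, had the largest change of the 6, from 779.8, 721 and 622 to 996, 1169 and 1348 normalized counts (log2 fold change 0.73, SE 0.124, adjusted p = 0.00997). Hspe1 and Hspd1, the mitochondrial chaperonin pair, rose by 0.69 (SE 0.124, adjusted p = 0.0111) and 0.53 (SE 0.109, adjusted p = 0.0200) on the log2 scale. Nop58 and Rcl1, both of ribosomal RNA processing, rose by 0.58 (SE 0.143, adjusted p = 0.0383) and 0.50 (SE 0.117, adjusted p = 0.0314). Polr1b, a subunit of RNA polymerase I, rose by 0.43 (SE 0.102, adjusted p = 0.0333). Over knockdown replicates 1 to 3, Odc1 and Rcl1 (1467, 1765 and 1878 normalized counts) rose in the order of Myc. Nop58, Hspd1, Hspe1 and Polr1b were highest in replicate 1, the library with the least Myc of its group. Nop58 had 411, 345 and 284 normalized counts in knockdown replicates 1 to 3, against 255, 218 and 221 in scramble replicates 1 to 3. Whether Myc moved these transcripts was not tested. The count of 6 was 0 without scramble replicate 3, where 0.619% of all genes tested were called, and 12 without knockdown replicate 3, where 11.2% were. It was 22 with library sizes taken from the spike-ins, where 20.8% of all genes were called. That scaling moved the median of all genes to 0.20 on the log2 scale.

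Across the 6 libraries, the genes whose pattern came closest to that of Myc were Slc25a30, Gadd45g and Gm30262. Likeness was the root mean square difference of centred log2 CPM over the 6 libraries, computed against 12804 genes, and it is a description of these libraries only. Slc25a30, a mitochondrial carrier, differed by 0.171 log2 units from Myc, whose own range was 3.33. Its normalized counts were 209, 313 and 161 in scramble replicates 1 to 3 and 427, 935 and 1632 in knockdown replicates 1 to 3. Gadd45g, a stress-induced relative of Gadd45b, differed by 0.274, with 44.1, 40.6 and 29.7 in scramble and 85.8, 261 and 448 in knockdown libraries. Gm30262, a predicted gene, differed by 0.348. In all 3, as in Myc, the knockdown libraries stood in the order replicate 3, replicate 2, replicate 1 from high to low. edgeR called none of the 3 (adjusted p of 0.134, 0.102 and 0.133), while DESeq2 called all 3, as it did Myc (adjusted p of 0.00668, 0.00125 and 0.0160).

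**Figure D2:**
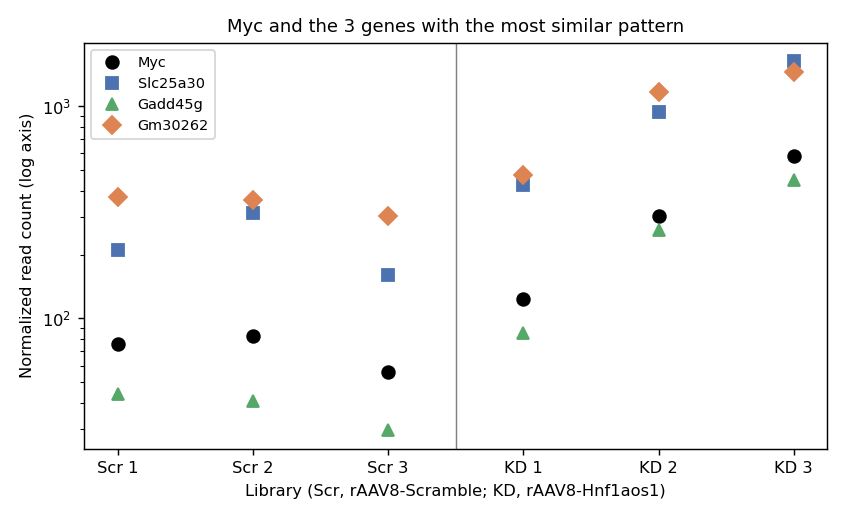
Normalized read counts (y axis, log scale) of Myc, Slc25a30, Gadd45g and Gm30262 in the 6 libraries (x axis), 1 point per library. All 4 genes are highest in knockdown replicate 3 and lower in knockdown replicate 1 than in knockdown replicate 2.

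Fos and Fosb, the Fos family members of the group, gave no difference between the groups that stood out from the replicate spread. Fos lies on chromosome 12 (85473890 to 85477273, plus strand). It had 32.8, 61.5 and 36.3 normalized counts in scramble replicates 1 to 3 and 40.1, 32.3 and 59.8 in knockdown replicates 1 to 3. The groups overlapped, with 1 high library in each, and knockdown replicate 2 was just below the scramble range. Its log2 fold change was 0.02 (SE 0.314, adjusted p = 0.973), and the 95% confidence interval of −0.67 to 0.71 leaves room for changes of that size either way. The sign turned with library totals in place of TMM and in 3 of the 6 fits without 1 library. The nearest genes in pattern were H4c12, Gm20684 and Tppp, at 0.0958, 0.116 and 0.136 log2 units.

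Fosb, on chromosome 7 (19302696 to 19310051, minus strand), had raw counts of 5, 55 and 5 in scramble replicates 1 to 3 and 16, 7 and 9 in knockdown replicates 1 to 3. The exact 95% Poisson intervals, which cover counting error only, were 41.4 to 71.6 for the count of 55 and 1.62 to 11.7 for each count of 5. Scramble replicate 2 thus stood apart from every other library beyond counting error, and it was also the scramble library with the most Fos. Fosb failed the filter on low counts. Without a filter its log2 fold change was −1.23 (SE 1.22, adjusted p = 0.664). That direction rests on scramble replicate 2: the 3 knockdown libraries (6.65 to 15.3 normalized counts) were all above the other scramble libraries (5.13 and 5.50).

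Jun and Junb, the Jun family partners, were higher on average in the knockdown libraries, and neither was called. Jun lies on chromosome 4 (95049034 to 95052222, minus strand) and had 205, 233 and 243 normalized counts in scramble replicates 1 to 3, and 259, 225 and 529.8 in knockdown replicates 1 to 3. Knockdown replicate 3 was 2.35 times the lowest library of its group, and the others lay near the scramble range. The log2 fold change of 0.58 (SE 0.347, adjusted p = 0.377) came down to 0.10 without knockdown replicate 3 (SE 0.138, adjusted p = 0.704). Junos, an antisense gene that overlaps Jun, was looked at because the strand setting of the counting is not stated and reads of the pair may then be hard to tell apart. It had 189, 155 and 236 normalized counts in scramble and 154, 162 and 203 in knockdown libraries (log2 fold change −0.16, SE 0.172, adjusted p = 0.623), and it was chosen after its values were seen. Nearest to Jun in pattern were Alas1, Mcm10 and Gm51937, at 0.148, 0.159 and 0.163 log2 units, and like Jun each was highest in knockdown replicate 3.

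Junb, which opposes Jun in some settings, lies on chromosome 8 (84974484 to 84978718, minus strand). Its normalized counts were 208, 169 and 284 in scramble replicates 1 to 3 and 263, 382 and 471 in knockdown replicates 1 to 3. The groups overlapped only through scramble replicate 3, which was above knockdown replicate 1. With means of 220.4 ± 58.3 (SD, n = 3) and 372 ± 104 (SD, n = 3), the log2 fold change was 0.76 (SE 0.255, 95% confidence interval 0.16 to 1.35, adjusted p = 0.129). DESeq2 called it (adjusted p = 0.0138), as did edgeR with library sizes from the spike-ins (log2 fold change 0.97, adjusted p = 0.0327) and without knockdown replicate 1 (0.95, adjusted p = 0.0402). Prdx2, a peroxiredoxin gene that overlaps Junb on the opposite strand, had 991 to 1066 normalized counts in the scramble and 836 to 1052 in the knockdown libraries (log2 fold change −0.06, SE 0.103, adjusted p = 0.759); it too was chosen after its values were seen. Gm36287, Gm45871 and Gm39157, all predicted genes, were nearest to Junb in pattern, at 0.194, 0.195 and 0.196 log2 units.

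Egr1 varied more between libraries than between groups. This zinc finger factor, induced through SRF and ERK signalling, had 451, 261 and 244 normalized counts in scramble replicates 1 to 3 and 256, 818 and 608 in knockdown replicates 1 to 3. Knockdown replicate 1 sat among the scramble libraries, and the others were above all of them. The log2 fold change was 0.81 (SE 0.524, adjusted p = 0.429, 95% confidence interval −0.57 to 2.19). It was 1.15 without knockdown replicate 1 (SE 0.319, adjusted p = 0.156) and 0.44 without knockdown replicate 2 (SE 0.523, adjusted p = 0.729). The genes closest to it were Cebpb, Gm35679 and Fst, at 0.296, 0.333 and 0.337 log2 units.

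Atf3, a bZIP repressor that stress induces, ran the other way. It lies on chromosome 1 (191170296 to 191218039, minus strand) and had 53.4, 43.9 and 47.3 normalized counts in scramble replicates 1 to 3 and 45.8, 38.96 and 24.5 in knockdown replicates 1 to 3. Knockdown replicate 3, the library with the most Myc, Jun and Junb, had the least Atf3. The log2 fold change was −0.41 (SE 0.270, adjusted p = 0.391) and came to −0.18 without that library (SE 0.258, adjusted p = 0.702). Angptl1, Ppp1r3c and Gm30784 had the nearest patterns, at 0.0832, 0.0889 and 0.0929 log2 units. Among 17 other bZIP partners and genes of the ATF4 arm, 15 were tested and 1 was called, near the share of 6.32% among all genes. Atf4, a regulator of amino acid stress that works upstream of Atf3, had 1011, 968 and 926 normalized counts in scramble and 1737, 1200.2 and 1262 in knockdown libraries (log2 fold change 0.53, SE 0.132, adjusted p = 0.0419). That call was lost with library totals, with a minimum mean of 50 counts, with limma's voom and without any 1 of the scramble libraries or knockdown replicate 1. The median log2 fold change of the list was −0.07.

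Ier2 and Ier3, small proteins induced by growth factors and stress, were not called. Ier2, on chromosome 8 (84661331 to 84662852, minus strand), was the steadiest of the group, with 173, 149 and 172 normalized counts in scramble replicates 1 to 3 and 143, 181 and 188 in knockdown replicates 1 to 3. Its log2 fold change was 0.05 (SE 0.145, adjusted p = 0.870), and the 95% confidence interval of −0.27 to 0.37 was the narrowest of the 9. The sign turned with library totals and without scramble replicate 2 or knockdown replicate 3. Aplf, Cnih4 and Atp13a2 came nearest to it in pattern, at 0.0341, 0.0429 and 0.0452 log2 units. Ier3, which limits cell death, lies on chromosome 17 (35821684 to 35822923, plus strand) and was low in all libraries. It had 11.3, 19.8 and 17.6 normalized counts in scramble and 8.58, 13.3 and 9.96 in knockdown libraries. At raw counts of 9 to 18, its log2 fold change of −0.60 (SE 0.383, adjusted p = 0.372) was not separable from the spread.

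Gadd45b, which couples stress to p38 and JNK signalling and to DNA demethylation, was the tested gene with the largest difference downward. It lies on chromosome 10 (80930073 to 80932204, plus strand). Its normalized counts were 26.7, 20.9 and 12.1 in scramble replicates 1 to 3 and 10.5, 7.60 and 4.53 in knockdown replicates 1 to 3. The groups did not overlap, although scramble replicate 3 and knockdown replicate 1 both came from 11 reads. The means were 19.9 ± 7.34 (SD, n = 3) and 7.54 ± 2.98 (SD, n = 3). The log2 fold change was −1.40 (SE 0.442, 95% confidence interval −2.37 to −0.43, unadjusted p = 0.00883, adjusted p = 0.0845). It was called only by the fit with no filter on low counts (adjusted p = 0.0441), where 6.92% of the 27496 genes tested were called. Its relative Gadd45g had the pattern of Myc, so these paralogs lay on opposite sides of 0, and Gadd45a had a log2 fold change of 0.92 (SE 0.282, adjusted p = 0.0764) and was chosen after its values were seen.

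Compared library by library, the knockdown libraries did not behave alike. Knockdown replicate 3 was above all scramble libraries for 5 of the 10 genes (Myc, Jun, Junb, Egr1 and Ier2) and below all of them for 3 (Atf3, Ier3 and Gadd45b). Knockdown replicate 2 was above for 4 (Myc, Junb, Egr1 and Ier2) and below for 3 (Fos, Atf3 and Gadd45b). Knockdown replicate 1 was above for 2 (Myc and Jun) and below for 3 (Ier2, Ier3 and Gadd45b). Over all genes tested, a knockdown library was above all scramble libraries for 30.0% (replicate 3) to 33.2% (replicate 1) and below for 29.2% to 33.4%. Relative to the scramble mean, Myc stood at 0.78, 2.09 and 3.03 on the log2 scale in knockdown replicates 1 to 3, and Gadd45b at −0.92, −1.39 and −2.13.

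The scramble libraries also differed among themselves. Scramble replicate 2 was the highest of all 6 libraries for Fos, Fosb and Ier3, and scramble replicate 1 for Atf3 and Gadd45b. The SD of log2 CPM within the scramble group was 0.47 for Fos, 0.48 for Egr1 and 0.52 for Gadd45b, against a median of 0.16 over all genes tested. It was 0.12 for Ier2 and 0.13 for Jun. In the knockdown group, Myc had an SD of 1.12, Egr1 0.87 and Jun 0.66, against a median of 0.18. The SD of genes with few reads, such as Gadd45b and Ier3, also holds counting error, and its part was not tested. Whether the handling of the animals or tissue moved with these values was not tested, since the labels give no time or order of collection.

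**Figure D3:**
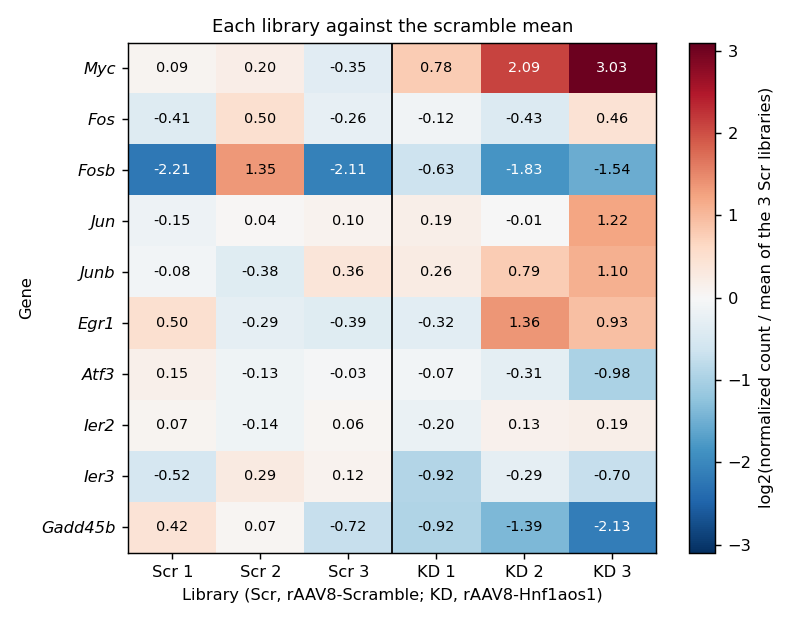
Log2 ratio of each library's normalized count to the mean of the 3 scramble libraries (colour and printed value) for the 10 genes (rows) in the 6 libraries (columns). Myc reaches 3.03 and Gadd45b −2.13 in knockdown replicate 3, while Fosb is negative in every library but scramble replicate 2.

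**Figure D4:**
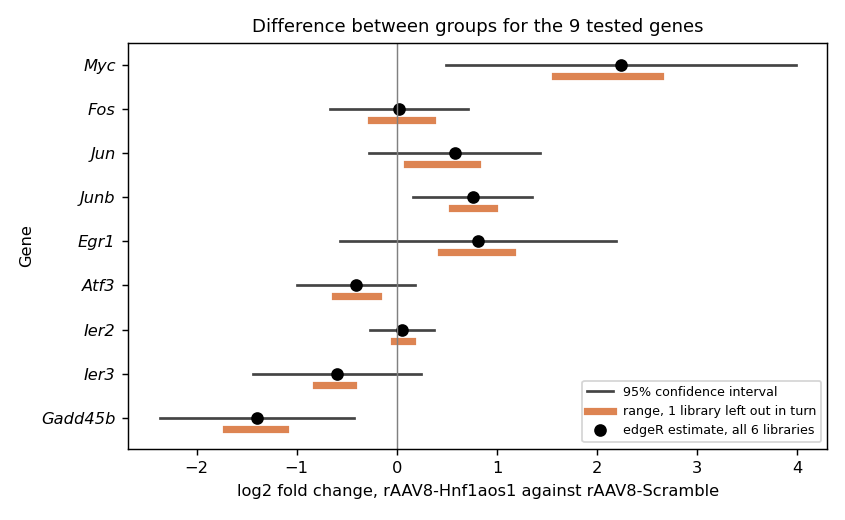
Estimates from edgeR of the log2 fold change, rAAV8-Hnf1aos1 against rAAV8-Scramble (x axis), of the 9 tested genes (y axis), with 95% confidence intervals (grey lines) and the range of estimates with each of the 6 libraries left out in turn (orange bars). The intervals of Myc, Junb and Gadd45b do not reach 0, and the orange bars of Fos and Ier2 cross 0.

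With each library left out in turn, the log2 fold change ran from 1.58 to 2.63 for Myc, 0.55 to 0.97 for Junb, 0.44 to 1.15 for Egr1, 0.10 to 0.80 for Jun and −1.71 to −1.12 for Gadd45b. Myc and Junb were called without knockdown replicate 1, and no member was called in the other 5 fits. In those 5 the share of all genes called was 3.74%, 2.34% and 0.619% without scramble replicates 1, 2 and 3, and 1.93% and 11.2% without knockdown replicates 2 and 3.

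Per length, as TPM in the authors' table (reads per transcript length, scaled to the same total in every library), Junb was the most abundant of the group in the scramble libraries, at 15.7 ± 4.62 TPM (SD, n = 3). Ier2 followed at 14.1 ± 1.42, Egr1 at 13.5 ± 4.72 and Jun at 9.29 ± 0.984 TPM. Junb, Ier2 and Egr1 overlapped over the libraries, and Jun lay below them and above all others. Myc ranked 5 at 3.87 ± 0.641 TPM, ahead of Atf3 at 3.18 ± 0.325 and Fos at 2.68 ± 0.911 TPM, with which it overlapped. Gadd45b (2.03 ± 0.717), Ier3 (1.94 ± 0.529) and Fosb (0.803 ± 1.07 TPM) closed the order, each overlapping its neighbour. In the knockdown libraries the order began with Junb at 24.9 ± 6.40, Egr1 at 22.3 ± 10.8 and Myc at 17.2 ± 11.6 TPM. Myc thus ranked 3 of the 10, although its TPM ran from 6.58 to 29.6 and overlapped with Junb, Egr1, Ier2 and Jun. Since these are whole livers, more cells that express a gene and more RNA per cell cannot be told apart.

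Other immediate early genes went in both directions. Of 48 listed, 43 were tested and 7 were called (16.3%, against 6.32% of all genes), 5 higher and 2 lower, with a median log2 fold change of 0.03. Socs3, a feedback inhibitor of cytokine signalling, had 57.5, 51.6 and 59.4 normalized counts in scramble and 129.7, 325 and 272 in knockdown libraries, and it rose by 2.11 on the log2 scale (SE 0.339, adjusted p = 0.0169). Csrnp1, an AXIN1-induced nuclear protein, rose by 1.11 (SE 0.186, adjusted p = 0.00949), Btg2, an antiproliferative gene, by 1.04 (SE 0.134, adjusted p = 0.00283) and the kinase gene Pim1 by 0.85 (SE 0.144, adjusted p = 0.0106). Egr3, a relative of Egr1, fell by 1.44 (SE 0.335, adjusted p = 0.0317), from 30.8, 37.3 and 36.3 to 7.63, 14.3 and 16.3 normalized counts. Klf4, a zinc finger factor of differentiation, fell by 1.10 (SE 0.205, adjusted p = 0.0133). Egr3 was therefore lower in all 3 knockdown libraries, while Egr1 was above the scramble range in 2 of them. The count of 7 was 1 without scramble replicate 3 and 11 without knockdown replicate 1, where 0.619% and 3.77% of all genes tested were called. DESeq2 called 11, and 6.96% of all its genes.

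Of 24 genes of MAP kinase and SRF signalling, all tested, 1 was called, against 6.32% of all genes: Map2k3, a kinase that activates p38, with a log2 fold change of 0.41 (SE 0.0960, adjusted p = 0.0309). That call was lost in 5 of the 6 fits without 1 library, and the sixth, without knockdown replicate 3, called 6 genes of the list and 11.2% of all genes. Of 18 cell cycle genes none was called, by edgeR or by DESeq2, and 3 had an unadjusted p under 0.05. Mki67, which marks proliferating cells, had a log2 fold change of −0.53 (SE 0.179, adjusted p = 0.105) and Birc5, a mitotic gene, −0.85 (SE 0.367, adjusted p = 0.191). The median of the list was 0.10.

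Of 15 heat shock genes, 4 were called (6.32% of all genes were), 3 higher and 1 lower: Hsp90aa1, the inducible cytosolic HSP90, rose by 0.79 on the log2 scale (SE 0.194, adjusted p = 0.0493), Hspe1 and Hspd1 rose as given above, since both lists hold them, and Bag3, a cochaperone of HSP70, fell by 0.44 (SE 0.115, adjusted p = 0.0452). The count of 4 was 0 without scramble replicate 3 and 8 without knockdown replicate 3, where 0.619% and 11.2% of all genes tested were called. Of 10 glucocorticoid response genes 3 were called, all lower, where 3.23% of all genes were called lower: Per1, a clock gene induced by glucocorticoids, by a log2 fold change of −1.80 (SE 0.206, adjusted p = 0.00294), Tsc22d3, which encodes GILZ, by −1.23 (SE 0.119, adjusted p = 0.000806) and Tat, tyrosine aminotransferase, by −0.72 (SE 0.116, adjusted p = 0.00766). The median log2 fold change of that list was −0.49, with 8 genes below 0 and 2 above, Fkbp5 and Mt2, both named after their values were seen. Fkbp5 rose by 0.42 (SE 0.114, adjusted p = 0.0517). The metallothionein gene Mt2 had 59.5, 51.6 and 33.0 normalized counts in scramble and 3690, 4251 and 352 in knockdown libraries (adjusted p = 0.0838). Mt2 was thus lowest among the knockdown libraries in replicate 3, where Myc was highest. Of 14 hypoxia response genes 13 were tested and 1 was called, near the share of 6.32% among all genes. This was Ndrg1, which fell by 0.76 (SE 0.127, adjusted p = 0.00903). The median log2 fold change of the 13 was −0.37, with 9 below 0. In edgeR's test 7 had an unadjusted p under 0.05, where 23.4% of all genes tested did. The groups did not overlap for 7, 2 with the knockdown higher and 5 with it lower, against 28.9% of all genes tested.

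**Figure D5:**
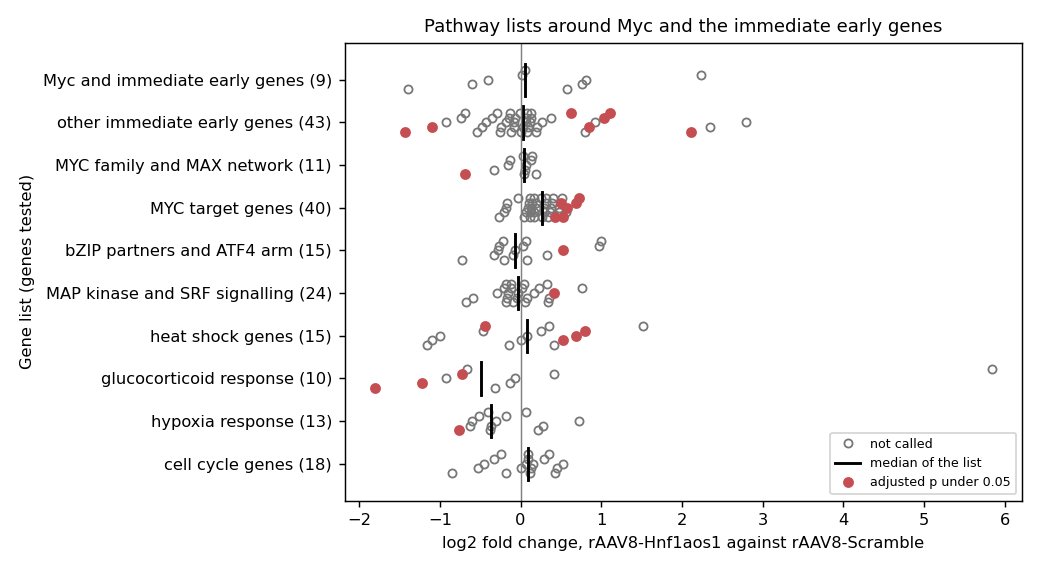
Log2 fold change, rAAV8-Hnf1aos1 against rAAV8-Scramble (x axis), of each tested gene in the 10 gene lists (rows, with the number tested), 1 point per gene, spread vertically for legibility. Filled red points had an adjusted p under 0.05 and black bars mark medians, and the MYC target genes have their median at 0.26 with 6 red points, all to the right of 0.

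Markers of macrophages were higher in the knockdown than in the scramble libraries. All 11 macrophage and Kupffer cell markers had a log2 fold change above 0 (49.9% of all genes tested did) and 5 were called (Adgre1, Clec4f, C1qa, C1qb and Lyz2), all higher, where 3.09% of all genes were called higher. The sum of the 11 was 245 to 291 CPM in the scramble and 314 to 396 CPM in the knockdown libraries (two-sided exact permutation test, p = 0.1, below which 3 libraries against 3 cannot go). The 9 neutrophil markers summed to 2.76 to 4.18 CPM against 4.66 to 7.34 CPM (p = 0.1 in the same permutation test), with Ly6g and Mpo at 0 in all libraries. The 6 cholangiocyte markers summed to 34.0 to 40.4 CPM against 49.0 to 149 CPM (exact permutation p = 0.1), and of the list Spp1 had the most reads, while Krt19, Krt7, Epcam and Cftr reached at most 88 reads in any library. The 5 B cell markers summed to 5.15 to 5.71 CPM against 5.77 to 7.17 CPM (exact permutation p = 0.1). For the other cell types the sums of the groups overlapped. Log2 differences were 0.18 for hepatocyte (exact permutation p = 0.2) and 0.27 for T and NK cell markers (exact permutation p = 0.4). Red blood cell markers differed by 0.03 (exact permutation p = 0.9). Lower sums on average were seen for endothelial (−0.10, exact permutation p = 0.3) and stellate cell markers (−0.15, exact permutation p = 0.5). Of the neutrophil markers only 1 passed the filter on low counts, and of the cholangiocyte markers 4 did. None of the neutrophil, cholangiocyte, endothelial, stellate, T and NK, B or red blood cell markers was called. The macrophage sum was highest in knockdown replicate 2 and lowest of the knockdown group in replicate 3 (314 CPM), where Myc, Jun and Junb were highest. The part of these cells in the values of Myc and the immediate early genes was not tested.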

How the data were processed

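Liver RNA of 6 mice was sequenced, 3 per group. Per the study's methods, the authors trimmed reads with Trimmomatic, aligned them with STAR and ran featureCounts on uniquely mapped exonic reads, and the deposited raw counts are its output. Further files of the authors hold TPM values for these rows, spike-ins included, normalized counts and a table of their own comparison (fold changes and p-values), and the last 2 were not used. The methods give GRCm38 and a poly(A) kit, while the submitters' processing notes give GRCm39 and the labels describe ribosomal RNA depletion. The strand setting and annotation release are not given in the sources used here. GENCODE on GRCm38 gave the positions, by gene symbol.

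The 92 ERCC spike-in rows (1.18 to 1.52% of counts) were left out. edgeR 4.0.16 in R 4.3.3 was run with TMM scaling, filterByExpr, robust quasi-likelihood fits on group alone and p-values adjusted by Benjamini-Hochberg. Alternatives were DESeq2 1.42.0, its size factors, library totals, spike-in library sizes, no filter, a minimum mean of 50 counts, voom (limma 3.58.1), the replicate number as a block and each library left out in turn. With 14704746 to 19462398 counts per library, genes of about 10 reads carry a large counting error. Chi-square values between libraries of a group were 7.10 to 28.7 per gene, and none was near the value of about 1 that sampling noise gives. The fits were tested on simulated data with known changes.

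Named were the 10 genes with every library's value, of each other list the called genes (at most 6 by size of change, or the 2 with the smallest p where none was called), Hnf1aos1 and the 3 genes nearest in pattern to each tested member of at least 1 log2 CPM. Genes and lists were chosen with earlier results of these data known.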

Additional observations from a re-analysis of the deposited data

How the results depend on the processing

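Of the values recomputed under the alternatives, 189 kept their direction and side of the threshold (or stayed within 1.5 times), 46 counts moved, 12 passed the threshold anew and 7 turned sign. The log2 fold change of Fos turned to −0.046 with library totals, and with 1 library left out it ran from −0.26 to 0.35 (below 0 for 3 libraries: scramble 1 and 3 and knockdown 3). That of Ier2 turned to −0.023 with library totals and ran from −0.024 to 0.16 (below 0 for scramble 2 and knockdown 3). The causes were not tested. DESeq2 called 2 of Myc and the immediate early genes and 11 of the other immediate early genes, where it called 6.96% of all its genes. With spike-in library sizes the calls were 1 of Myc and the immediate early genes, 11 other immediate early genes, 22 MYC targets, 3 bZIP genes, 5 MAP kinase genes, 7 heat shock genes and 1 cell cycle gene. With no filter on low counts they were 1 (Gadd45b), 11 MYC targets, 2 bZIP genes, 3 MAP kinase genes and 1 cell cycle gene. The spike-in fit called 20.8% of all genes tested and the fit with no filter 6.92%. The bZIP count was 0 with library totals, a minimum mean of 50 counts and voom, which called 6.42%, 6.93% and 5.52% of all genes. The fits without 1 library called 0.619% to 11.2% of all genes. With 1 library left out, the counts ran from 0 to 2 for Myc and the immediate early genes, 1 to 11 for the other immediate early genes, 0 to 1 for the MAX network, 0 to 12 for MYC targets, 0 to 1 for the bZIP genes, 0 to 6 for the MAP kinase genes, 0 to 8 for the heat shock genes and 0 to 1 for the cell cycle genes.

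Hnf1aos1 was called by DESeq2 (−0.74), with no filter (−0.74) and by voom (−0.77), and its log2 fold change ran from −1.01 (without knockdown replicate 3, called) to −0.60 with 1 library left out. No pairing by replicate number was seen over the tested genes as a whole: deviations of same-numbered libraries correlated at −0.02, 0.02 and 0.00. Whether single genes were paired was not tested. With the replicate number as a block, 878 genes were called in place of 1032, 1 of Myc and the immediate early genes was called (Junb, 0.75, adjusted p = 0.0396), as were 2 MAP kinase genes and Hnf1aos1 (−0.77). Ranked by TPM or by CPM, Myc ranked 5 of the 10 in the scramble libraries. Fosb, Ier3 and Gadd45b rest on 5 to 55 reads per library, which limits what could be detected.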
